A study of Mus musculus with 10 samples.

Results

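Cytochrome oxidase and ATP synthase are the enzymes at the end of mitochondrial respiration, and most of the genes followed here encode nuclear subunits of them. Members were the protein-coding genes of GENCODE vM21 whose symbol begins with Cox4 to Cox8 or with Atp5, without Cox8b and Cox7a1. A choice by symbol need not cover every nuclear subunit, and it also takes in Cox7a2l and Atp5s, described below. This gave 33 of the 27876 gene symbols measured, 16 for cytochrome oxidase and 17 for ATP synthase. For each gene the transcript of highest mean level was used. The rule is written in symbols and mean level and holds no value of the difference between groups. It was set, with these exclusions, when earlier results of these data were known.

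RNA was sequenced from kidney tissue of wild-type mice on day 14, with 5 mice given vehicle and 5 given quinolinic acid, a tryptophan breakdown product, at 0.5 g/L in the drinking water. The submitters call these mice representative of their groups, so the libraries are a chosen subset. All 10 libraries carry the same batch label, and the labels used here state neither sex, age, strain nor whether the kidneys had been injured. The comparison asks whether kidney RNA differs between mice that drank quinolinic acid and mice that drank vehicle. Only the authors' deposited table of that comparison was used, so values of single mice were not analysed here. Library depths are unknown, and the spread among the mice cannot be shown. Its header does not state which group is the numerator of the log2 fold change (log2 FC), so every sign below is the deposited sign and has no direction relative to quinolinic acid. Errors are approximate 95% intervals computed from the deposited log2 FC and likelihood ratio.

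Cytochrome oxidase, complex IV, passes electrons from cytochrome c to oxygen and pumps protons across the inner mitochondrial membrane. Its catalytic core is encoded in mitochondrial DNA, and the nuclear subunits surround that core, stabilise it and tune it, in part through isoforms that differ between tissues. ATP synthase, complex V, lets protons flow back through a membrane rotor (Fo) and uses the rotation to make ATP in a catalytic head (F1), which a peripheral stalk holds still. Kidney tubules, above all the proximal tubule and the thick ascending limb, are dense in mitochondria and depend on this ATP for solute transport.

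The tissue label was checked against markers. By the authors' deposited table the proximal tubule genes Slc34a1, Lrp2, Cubn and Slc5a2 lay between 103 and 1430 CPM (read counts scaled to library size, as a mean over libraries), and Umod, of the thick ascending limb, at 1274 CPM. The 4 skeletal muscle markers and the 4 heart muscle markers all lay under 1 CPM, with highest values of 0.395 and 0.387 CPM by the authors' deposited table.

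The promoters of the members were searched for motifs of factors known from respiratory genes, a feature that the choice of members did not use. Nuclear respiratory factor 1 (NRF1), the ETS factor GABP and estrogen-related receptors (ERR) are known activators of respiratory chain genes. RefSeq promoters of build GRCm38.p6, from 250 bases before to 50 bases after the start, were found for 24 members. The NRF1 core, GCGCA and GCGC with 1 free base between them, was present on either strand in 6 of them (25%), against 10.4% of 9924 promoters of coding genes with a mean of 1 CPM or more. The GABP core CCGGAAG was present in 7 (29.2%, against 18.1%), the ERR site AAGGTCA in 4 (16.7%, against 3.13%) and the YY1 core ATGGCGG in 1 (4.17%, against 8.38%). The sets are unlike, since the 24 include Cox7b2 and Atp5g2, both under 1 CPM, and Atp5g2 is 1 of the 6 with an NRF1 core. Over all 15773 promoters found the shares were 7.59% for NRF1, 13.6% for GABP, 3.75% for ERR and 6.1% for YY1. The RefSeq start lay 1305 bases from the vM21 gene start for Atp5g2, 2997 for Cox7a2l and 3643 for Atp5d. These letters are matches and no evidence of binding, and the shares were not tested. The median GC content was 55.8% in the members' promoters and 61.0% in those of the coding genes. The 4 promoters printed here show each of the first 3 motifs at least once. They belong to Cox6a1 (chr5:115348959-115349208, minus strand), Atp5l (chr9:44920743-44920992, minus strand), Atp5g3 (chr2:73911327-73911576, minus strand) and Atp5e (chr2:174464102-174464351, minus strand). Each is the 250 bases before the start, 5′ to 3′, and capitals mark a motif on either strand.
Cox6a1: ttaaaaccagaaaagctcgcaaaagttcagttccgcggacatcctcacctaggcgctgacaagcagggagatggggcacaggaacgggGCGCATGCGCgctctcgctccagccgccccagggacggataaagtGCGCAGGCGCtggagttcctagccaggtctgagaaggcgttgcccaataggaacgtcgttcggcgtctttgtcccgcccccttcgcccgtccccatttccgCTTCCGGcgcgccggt
Atp5l: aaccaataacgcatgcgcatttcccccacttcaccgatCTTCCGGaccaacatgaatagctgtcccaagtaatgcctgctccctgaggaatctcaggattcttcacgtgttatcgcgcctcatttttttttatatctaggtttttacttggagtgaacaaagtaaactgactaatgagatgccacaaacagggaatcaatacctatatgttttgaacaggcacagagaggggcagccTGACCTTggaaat
Atp5g3: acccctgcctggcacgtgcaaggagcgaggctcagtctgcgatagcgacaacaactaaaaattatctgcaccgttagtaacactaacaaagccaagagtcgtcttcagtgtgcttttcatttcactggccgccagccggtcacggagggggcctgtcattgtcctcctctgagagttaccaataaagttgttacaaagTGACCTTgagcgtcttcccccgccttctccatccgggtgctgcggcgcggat
Atp5e: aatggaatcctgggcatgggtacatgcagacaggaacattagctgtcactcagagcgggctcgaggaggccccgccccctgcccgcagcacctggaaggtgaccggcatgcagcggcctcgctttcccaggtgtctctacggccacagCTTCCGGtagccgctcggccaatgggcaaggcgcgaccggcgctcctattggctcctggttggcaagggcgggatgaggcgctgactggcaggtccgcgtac
In Cox6a1 the capitals mark, in order, 2 NRF1 cores and 1 GABP core. In Atp5l they mark a GABP core and then an ERR site, in Atp5g3 an ERR site and in Atp5e a GABP core. No motif overlaps another in these 4. After the start, outside the printed stretch, Atp5g3 also holds an NRF1 core (base 12 to base 21), Atp5e an ERR site (base 24 to base 30) and Atp5l a second GABP core (base 24 to base 30).

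None of the 33 members passed the test between the groups. With the authors' edgeR likelihood-ratio test 0 members reached an adjusted p under 0.05, where 0.0141% of all 85107 transcripts did. At an unadjusted p under 0.05 the count was again 0 members, where 5.12% of genes passed. Cox8b, which the rule leaves out, had an unadjusted p of 0.00930 by the same test, so this count depends on the exclusion. The 33 genes have 130 transcripts by the authors' deposited table, and 0 of these 130 had an unadjusted p under 0.05, against 6.08% of all transcripts. The smallest unadjusted p of a member was 0.0615, and the adjusted p values ran from 0.794 to 1 by the authors' deposited table.

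The members nevertheless had small log2 FC values, nearly all of 1 deposited sign. By the authors' deposited table, 31 members had a positive sign, 1 a negative sign (Atp5g2) and 1 a log2 FC of 0 (Cox8c), while 25 of 33 were above 0 once the trend of log2 FC on transcript length and level was removed, 30 of 33 with GC content added to that trend, and 20 of 28 with a trend fitted over genes of 1 CPM or more. The median log2 FC was 0.20, beside 0.04 for all genes and 0.08 for the 12632 coding genes of 1 CPM or more, of which 71.8% had a positive sign. Under the 3 trend fits, in the order given, 64.2%, 66.1% and 50.8% of these coding genes were above 0. The shares of the members were 75.8%, 90.9% and 71.4%, and the differences were not tested. Without a trend removed, the middle 50% of these coding genes ran from -0.01 to 0.16. The deposited sign was positive for 93.9% of the members, and for 94.1% of 592 other coding genes with transcripts of 500 to under 1000 nt. Of the members, 28 had a mean of 1 CPM or more, and each of their 28 intervals included 0. The 16 cytochrome oxidase genes had a median log2 FC of 0.23 and the 17 ATP synthase genes one of 0.19. The difference between the complexes was not tested.

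**Figure D1:**
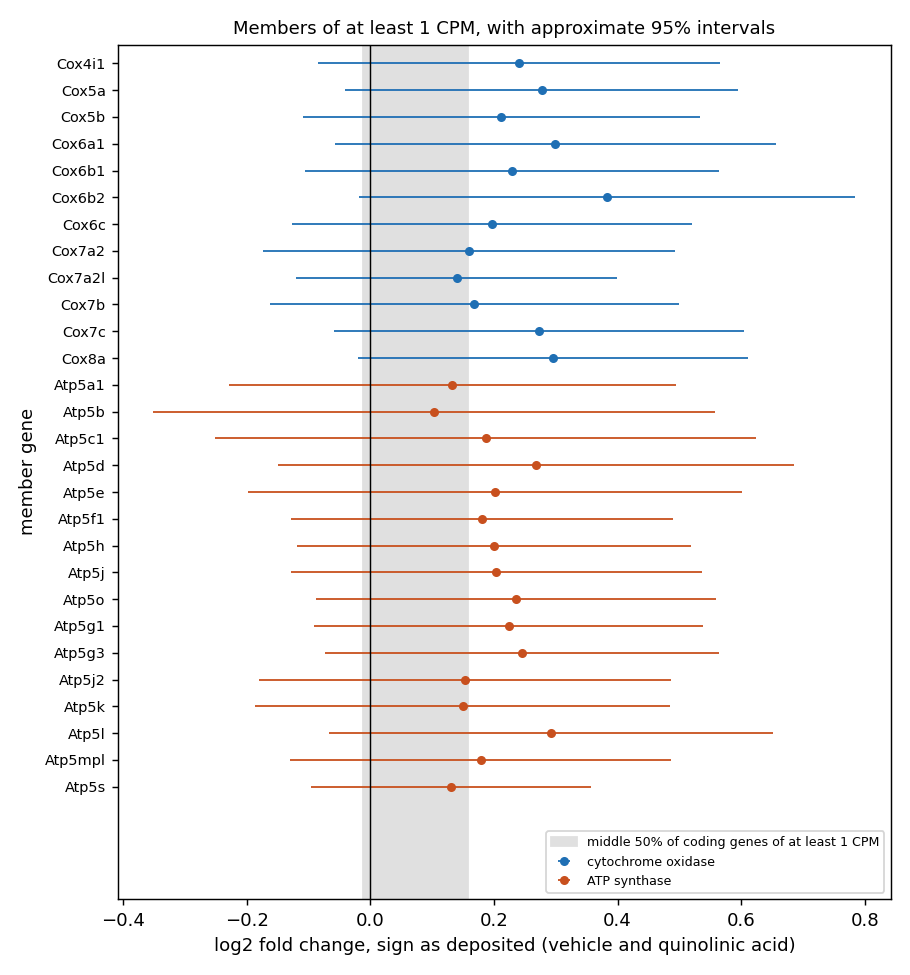
Log2 fold change (horizontal axis, deposited sign) of the 28 members with a mean of 1 CPM or more, with approximate 95% intervals as bars, blue for cytochrome oxidase and orange for ATP synthase; the grey band is the middle 50% of coding genes of 1 CPM or more. All points lie between 0.10 and 0.38, and every interval crosses 0.

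The precision behind these values sets what could have been seen. For the 28 members the approximate standard error of the log2 FC ran from 0.12 to 0.23, with a median of 0.17. The called transcript with the weakest statistic had a likelihood ratio of 21.5. At the median error a member would have needed a log2 FC of 0.78, a 1.72-fold difference, to reach it, and one of 0.33 for an unadjusted p of 0.05. The median log2 FC of these 28 members, 0.20, lay under both values, so a difference of that size could easily be missed one gene at a time.

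The abundant genes of subunits 4, 5A and 5B of cytochrome oxidase had values close to the median of the members. Cox4i1, the common form of the subunit that binds ATP as a brake on the enzyme, had a log2 FC of 0.24 (95% interval -0.08 to 0.57) at 419 CPM by the authors' deposited table. Its hypoxia-related counterpart Cox4i2, best known from lung, stood at only 0.376 CPM with a log2 FC of 0.48 (-0.14 to 1.10) by the authors' deposited table. Per kb of coding transcript the levels were 548 CPM for Cox4i1 and 0.518 CPM for Cox4i2. Cox5a, whose product binds the thyroid hormone metabolite T2, had a log2 FC of 0.28 (-0.04 to 0.60) at 127 CPM by the authors' deposited table. Cox5b, the zinc-binding subunit, had one of 0.21 (-0.11 to 0.53) at 67.0 CPM. Cox4i1 overlaps Gm20388 on its own strand and Emc8 on the opposite strand, so its reads are in part uncertain.

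The subunits with tissue isoforms, 6A, 6B, 7A, 7B and 8, were represented in kidney by their widely expressed forms. Cox6a1 (chromosome 5, 115345657 to 115348914, mm10), the non-muscle form of subunit 6A, had a log2 FC of 0.30 (-0.06 to 0.66) at 195 CPM by the authors' deposited table. The row behind it is a 2-exon transcript annotated with a retained intron; its coding transcript gave the same rounded value. Cox6a2, the heart and skeletal muscle form, was measured at 0.448 CPM with a log2 FC of 0.35 (-0.13 to 0.82) by the authors' deposited table. Per kb of coding transcript Cox6a1 stood at 341 CPM and Cox6a2 at 0.660 CPM.

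Cox6b1, the ubiquitous subunit that helps to bridge the dimer, had a log2 FC of 0.23 (-0.11 to 0.56) at 218 CPM by the authors' deposited table. Cox6b2 (chromosome 7, 4751795 to 4753023, mm10), the form known from testis, reached 4.04 CPM. It had the largest positive log2 FC among members of 1 CPM or more, 0.38 (-0.02 to 0.78), and the smallest unadjusted p of all members, 0.0615, with an adjusted p of 0.794 by the authors' deposited table. Its 9 transcripts, most of them coding, lay between 0.36 and 0.41, and the row used here is annotated as subject to nonsense-mediated decay. The testis markers Prm1 and Prm2 were listed with a log2 FC of 0 at 0.0260 and 0.0231 CPM by the authors' deposited table. Tnp1, the third marker of that list, had no row.

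Cox7a2, the ubiquitous form of subunit 7A, had a log2 FC of 0.16 (-0.17 to 0.49) at 164 CPM by the authors' deposited table. Cox7a2l, also called SCAF1, joins complex IV to complex III in supercomplexes, and had one of 0.14 (-0.12 to 0.40) at 46.9 CPM. Cox7b, an X-linked subunit, had a log2 FC of 0.17 (-0.16 to 0.50) at 162 CPM by the authors' deposited table. Without the length and level trend these 3 genes stood at -0.02, 0.00 and -0.01, at or just under 0. The testis form Cox7b2 was barely detected, at 0.0250 CPM, so that its log2 FC of 0.00 had an interval from -4.90 to 4.91 by the authors' deposited table.

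Cox8a (chromosome 19, 7215153 to 7217616, mm10), the smallest of the widely expressed subunits, had a log2 FC of 0.29 (-0.02 to 0.61) at 156 CPM and an unadjusted p of 0.0668 by the authors' deposited table. Cox8c, another isoform of testis, was listed with a log2 FC of 0 at 0.0206 CPM, close to the lowest level in the table. Cox6c, a subunit with no isoform in this table, had a log2 FC of 0.20 (-0.13 to 0.52) at 237 CPM by the authors' deposited table. The row behind Cox6c is a 3038-nt transcript annotated with a retained intron, and its coding transcript of 738 nt gave the same rounded value. Cox7c had one of 0.27 (-0.06 to 0.60) at only 3.92 CPM, a level taken up below.

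The 2 isoforms that the rule left out had unlike values. Cox8b, the muscle and brown fat form of subunit 8, had a log2 FC of 2.89 (0.71 to 5.07) at 0.117 CPM, with an unadjusted p of 0.00930 and an adjusted p of 0.707 by the authors' deposited table. Cox7a1, the muscle and brown fat form of subunit 7A, had a log2 FC of 0.18 (-0.20 to 0.55) at 6.43 CPM, near the values of the members. The brown fat genes Ucp1 (log2 FC 3.48, 0.184 CPM) and Cidea (2.70, 0.170 CPM) had values of the size of Cox8b by the authors' deposited table. White fat genes had values of the same sign, since Adipoq, Plin1 and Cfd had log2 FC values of 4.55, 4.61 and 3.77 at 0.216, 0.0660 and 1.43 CPM by the authors' deposited table. None of these fat genes passed the test at an adjusted p under 0.05. The part of fat tissue in the value of Cox8b was not tested.

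The catalytic head of ATP synthase is encoded by 5 members, among them the 2 with the highest CPM. Atp5b (chromosome 10, 128083273 to 128090391, mm10), the beta subunit that carries the catalytic sites, had a log2 FC of 0.10 (-0.35 to 0.56) at 943 CPM by the authors' deposited table. It was the smallest log2 FC among members of 1 CPM or more, and -0.05 without the length and level trend. Atp5a1, the alpha subunit that alternates with beta, had a log2 FC of 0.13 (-0.23 to 0.49) at 779 CPM by the authors' deposited table. The gamma subunit Atp5c1, the shaft that turns inside the head, had one of 0.19 (-0.25 to 0.62) at 214 CPM. Atp5d and Atp5e, the delta and epsilon subunits at the foot of the shaft, had log2 FC values of 0.27 (-0.15 to 0.69, 145 CPM) and 0.20 (-0.20 to 0.60, 119.9 CPM) by the authors' deposited table. All 5 genes had a larger standard error than the median member.

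The 4 genes of the peripheral stalk had values near the median of the members. Their log2 FC by the authors' deposited table was 0.18 for Atp5f1 (subunit b, 206 CPM), 0.20 for Atp5h (subunit d, 119 CPM), 0.20 for Atp5j (subunit F6, 133 CPM) and 0.24 for Atp5o (the oligomycin sensitivity conferring protein, OSCP, 138 CPM). The interval of Atp5f1 ran from -0.13 to 0.49 and that of Atp5o from -0.09 to 0.56. Atp5j is overlapped on the opposite strand by Gabpa, the gene of the GABP alpha chain. Gabpa had a log2 FC of -0.04 (-0.24 to 0.16) at 20.5 CPM by the authors' deposited table. The sources used here do not give the strand setting of the counting, so reads in the overlap cannot be told apart.

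The c ring, which rotates as protons pass, is built from 1 mature protein encoded by 3 genes that differ in their import sequence. Atp5g3 (chromosome 2, 73908447 to 73911326, mm10) had a log2 FC of 0.25 (-0.07 to 0.56) at 409 CPM by the authors' deposited table. Per kb of the coding transcript with the highest mean level, at 573 CPM, it was the highest of all 33 members. That rank depends on the transcript, since a 476-nt coding transcript of Cox4i1 stood at 779 CPM per kb. Atp5g1 had a log2 FC of 0.22 (-0.09 to 0.54) at 34.0 CPM. Atp5g2 (chromosome 15, 102662864 to 102671127, mm10) stood at 0.388 CPM and was the 1 member with a negative sign, a log2 FC of -0.48 (-1.04 to 0.08) with an unadjusted p of 0.0906 by the authors' deposited table. All 4 of its transcripts had a negative log2 FC, from -0.60 to -0.46, and they share reads. Per kb of coding transcript Atp5g2 stood at 0.531 CPM. The value of Atp5g1 depends on the transcript, with 7.21 CPM per kb for its 4715-nt row and 53.3 CPM per kb for a coding transcript of 596 nt.

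The small membrane subunits, which bend the membrane and join 2 enzymes into a dimer, were alike in level except for 1. Atp5j2 (subunit f) had a log2 FC of 0.15 (-0.18 to 0.49) at 150.2 CPM and Atp5k (subunit e) one of 0.15 (-0.19 to 0.49) at 87.2 CPM by the authors' deposited table. Atp5mpl, a proteolipid that associates with the rotor, had one of 0.18 (-0.13 to 0.49) at 91.8 CPM. Without the length and level trend these 3 stood at -0.03, -0.02 and 0.00, the last just under 0. Atp5l (subunit g) had a log2 FC of 0.29 (-0.07 to 0.65) at only 1.60 CPM by the authors' deposited table. Atp5s, the coupling factor B, had one of 0.13 (-0.10 to 0.36) at 7.16 CPM, the narrowest interval of all members.

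**Figure D2:**
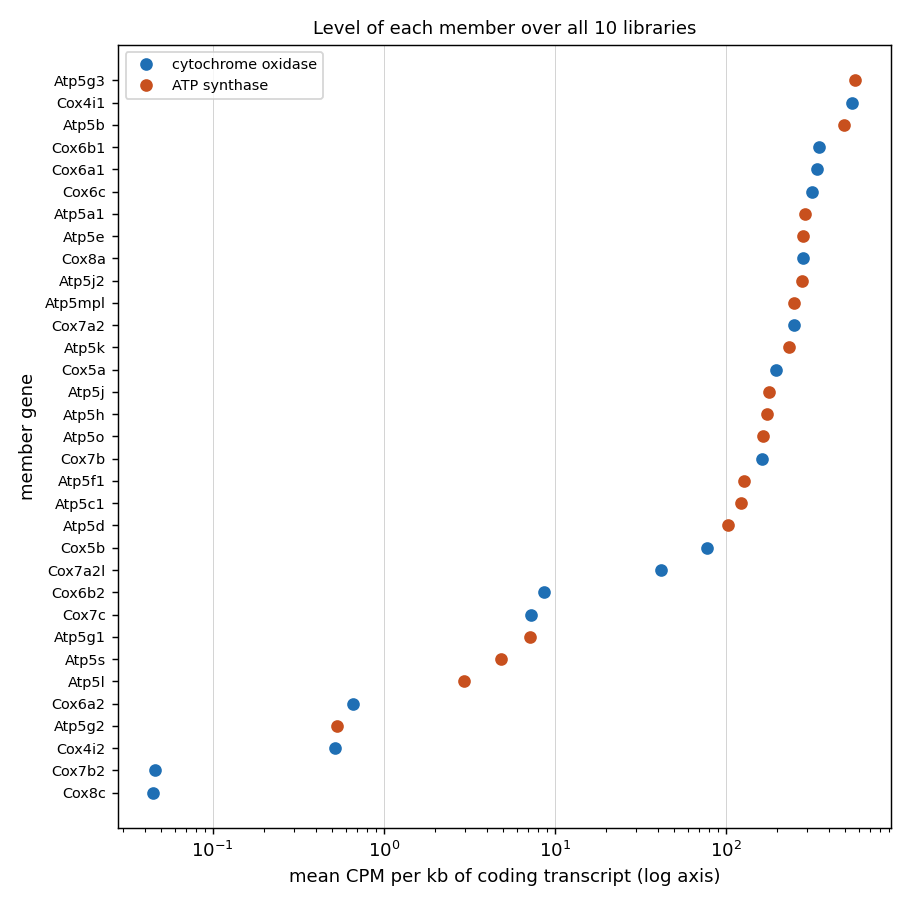
Mean level of each of the 33 members over all libraries, as CPM per kb of the coding transcript with the highest mean level, on a log axis. The members range from 0.0450 (Cox8c) to 573 (Atp5g3) CPM per kb, and 23 of them lie above 40 CPM per kb.

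The 5 members under 1 CPM were Cox4i2, Cox6a2, Cox7b2, Cox8c and Atp5g2. No error can be given for a level, so the order of neighbours in the plot of levels was not tested.

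Some of the low levels stood beside sequence shared with other genes. Cox7c, Atp5l and Atp5g2 stood at 3.92, 1.60 and 0.388 CPM by the authors' deposited table. The share of 50-nt windows of the row's transcript that also occurs in transcripts of other genes in vM21 was 53.0% for Cox7c, 84.8% for Atp5l and 87.4% for Atp5g2. These were the 3 highest shares among the members. The next was Atp5h with 47.9%, at 119 CPM, and 13 members shared no window at all. Most partners were pseudogenes, 3 of 3 for Cox7c, 2 of 2 for Atp5g2 and 12 of 14 for Atp5l. For Atp5g2 the pseudogene Gm10175 had a log2 FC of 0.01 at 0.382 CPM, nearly the level of Atp5g2 itself, by the authors' deposited table. The values of these 3 members are uncertain, since the sources used here do not give how reads with several positions were counted. The part of shared sequence in their levels was not tested. Without the 12 members that share 10% or more of their windows, 20 of 21 had a positive sign and the median log2 FC was 0.19.

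**Figure D3:**
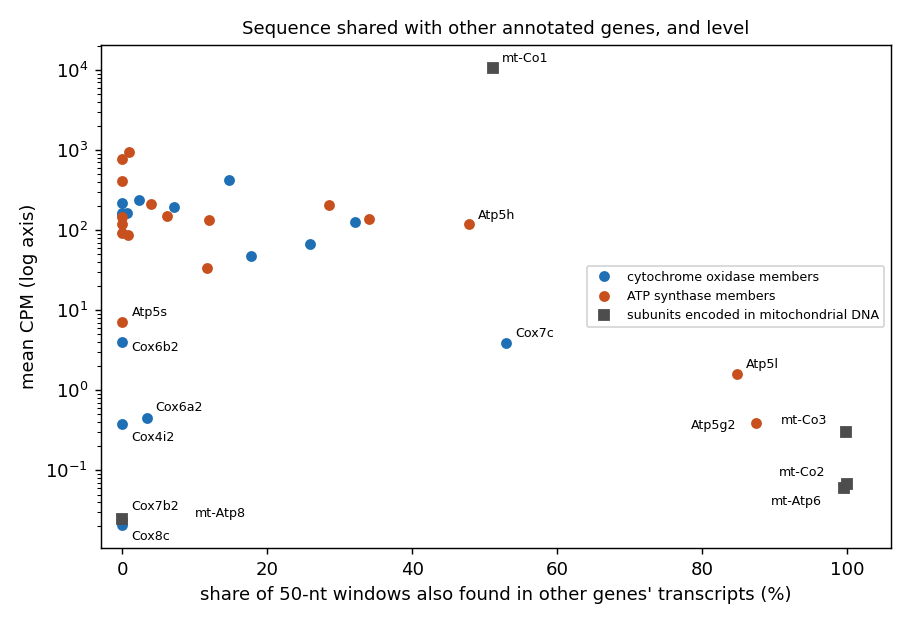
Mean CPM (log axis) of each member and of the subunits encoded in mitochondrial DNA against the share of 50-nt windows of its transcript that is also found in other annotated genes. Atp5l, Atp5g2, mt-Co2, mt-Co3 and mt-Atp6 lie at shares of 84.8% or more and at 1.60 CPM or less, while mt-Co1 lies at 51.1% and 10720 CPM.

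The partner subunits encoded in mitochondrial DNA were listed at a high level for 1 gene only. mt-Co1, the subunit that holds the oxygen-reducing centre of complex IV, had a log2 FC of 0.04 (-0.41 to 0.49) at 10720 CPM by the authors' deposited table. mt-Co2 and mt-Co3, the other core subunits, were listed at 0.0683 and 0.305 CPM with log2 FC values of 0.68 (-1.01 to 2.37) and -0.04 (-0.77 to 0.69) by the authors' deposited table. mt-Atp6, the proton channel subunit of ATP synthase, and mt-Atp8 were listed at 0.0597 and 0.0245 CPM with log2 FC values of 0.20 (-1.61 to 2.01) and 1.07 (-1.502 to 3.64). The shared windows were 100% for mt-Co2, 99.9% for mt-Co3 and 99.5% for mt-Atp6, but 0% for mt-Atp8. The values of the first 3 are uncertain for the same reason. The search for shared windows covered only annotated transcripts. The overlap of mt-Atp8 (up to base 7969) with mt-Atp6 (from base 7927) is shorter than a window, so the search could not register it. The 0% therefore does not show that mt-Atp8 lacks shared sequence, and its low level was not tested further. Since every cell with mitochondria uses these genes, none of the 4 levels is read as the abundance of the RNA. No ratio of nuclear to mitochondrial subunits was computed.

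The genes of complexes II and III and of cytochrome c gave values of the same size or smaller. Complex I genes were not among the lists used here. All 10 genes of complex III and cytochrome c, which hand electrons to complex IV, were above 0, at a median log2 FC of 0.18, and 5 to 8 of 10 were so across the 3 trend fits. Their smallest p by the authors' deposited table belonged to Uqcrfs1, the Rieske iron-sulfur protein (log2 FC 0.27), Uqcr10 (0.20) and Uqcrh (0.17). All 8 genes of complex II and its assembly were above 0, at a median of 0.17, and 5 to 7 of 8 were so across the 3 trend fits. They were led by Sdhc (0.20), Sdhaf1 (0.21) and Sdhd (0.17) by the authors' deposited table. Across the same 3 fits 50.8% to 66.1% of the coding genes of 1 CPM or more were above 0. No gene of these lists passed the likelihood-ratio test at either threshold.

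Genes that build complex IV, with a median transcript of 1383 nt, had both signs. Of 23 assembly and copper delivery genes 19 were above 0 and 4 below, at a median log2 FC of 0.13. Across the 3 trend fits 13 to 18 of 23 were above 0, beside 50.8% to 66.1% of coding genes of 1 CPM or more. Pet117, an assembly factor, had a log2 FC of -0.34 (-0.66 to -0.03) at 1.70 CPM with an unadjusted p of 0.0340 and an adjusted p of 0.794 by the authors' deposited table. It was the 1 gene of 23 with an unadjusted p under 0.05 (4.35%), a share near the 5.12% of all genes and the 4.07% of coding genes of 1 CPM or more. Higd1a, a hypoxia-inducible modulator of the enzyme, had a log2 FC of 0.23 (-0.01 to 0.48), and Coa6, of the copper route, one of 0.30 (-0.02 to 0.61) by the authors' deposited table. All 5 ATP synthase assembly genes were above 0, at a median of 0.15, while only 2 of 5 were so with the trend fitted over genes of 1 CPM or more. In front by p were Fmc1 (0.25), Atpaf2 (0.15) and Tmem242 (0.15) by the authors' deposited table.

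Regulators of mitochondrial genes were divided in sign. Of 16 genes 7 were above 0 and 9 below, at a median log2 FC of -0.02. Across the 3 trend fits 6 or 7 were above 0, beside 50.8% to 66.1% of coding genes of 1 CPM or more. Gabpb2, a beta chain of GABP, had a log2 FC of -0.21 (-0.42 to just under 0) and the coactivator gene Ppargc1b one of -0.31 (-0.62 to just under 0), with unadjusted p values of 0.0473 and 0.0499 by the authors' deposited table. The adjusted p was 0.794 for both. They were the 2 genes of 16 with an unadjusted p under 0.05 (12.5%), beside 5.12% of all genes and 4.07% of coding genes of 1 CPM or more. The difference in share was not tested. Ppara had a log2 FC of -0.40 (-0.94 to 0.14). Nrf1 stood at -0.01 (-0.22 to 0.20), Ppargc1a at -0.08 (-0.29 to 0.13) and Esrra, of the ERR family, at 0.21 (-0.07 to 0.48) by the authors' deposited table. These 3 genes were picked as the best known of the list, after their values were seen. Esrra had the largest log2 FC of the 16. The other ERR genes were below 0, Esrrg at -0.20 (-0.46 to 0.07, 24.4 CPM) and Esrrb at -0.05 (-0.32 to 0.23, 9.07 CPM) by the authors' deposited table. The regulators have long transcripts, with a median of 4228 nt against 727 nt for the members. Among carriers that exchange ATP and phosphate across the inner membrane, Slc25a4 had a log2 FC of 0.34 (0.08 to 0.60) at 151 CPM (unadjusted p = 0.0118, adjusted p = 0.730) and Slc25a3 one of 0.28 (-0.02 to 0.57) at 340.1 CPM by the authors' deposited table. With Ucp1, 2 of the 7 genes listed as carriers and uncoupling proteins had an unadjusted p under 0.05 (28.6%), a share that was not tested.

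**Figure D4:**
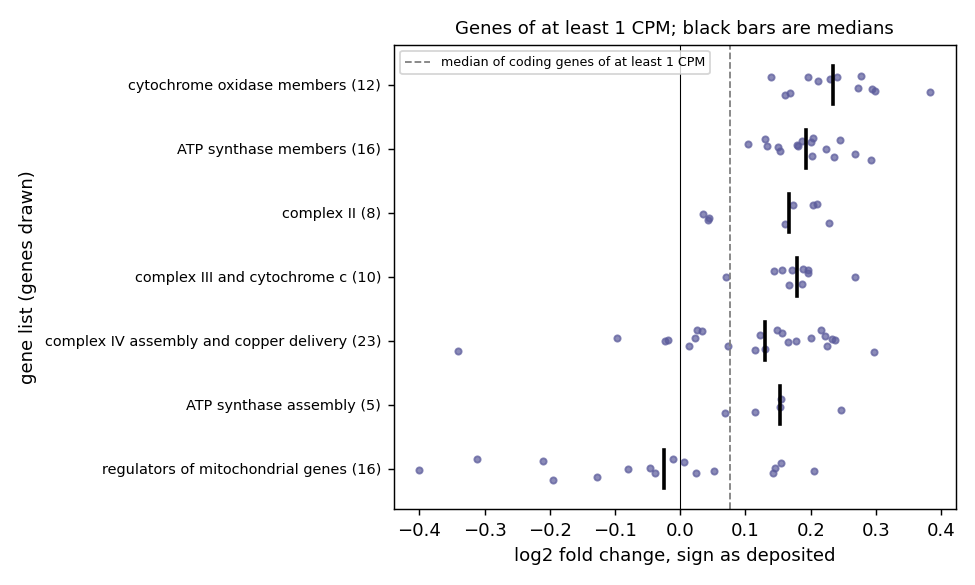
Log2 fold change (horizontal axis, deposited sign) of single genes of 1 CPM or more in each list, with black bars for the medians and a dashed line for the median of coding genes of 1 CPM or more (0.08). Members of both complexes lie to the right of this line, and the regulators lie around 0.

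The size of the members' values went with their short transcripts. Across the 28 members of 1 CPM or more Spearman's rho between log2 FC and transcript length was -0.45, and across the 12632 coding genes it was -0.53; both are across genes of the same libraries, which are not independent replicates. Of these 28 members 15 had transcripts of 500 to under 1000 nt, with a median log2 FC of 0.24. The other 592 coding genes in that class had a median of 0.18, 94.1% of them had a positive sign, and 12 of the 15 members lay above their median. In the class of 1000 to under 2000 nt the 8 members had a median of 0.17 and the 2498 other genes one of 0.15. Among transcripts of 4000 nt or more the other 4294 genes had a median of -0.01, and the member in that class, Atp5g1, had 0.22, for a 4715-nt row. The shorter coding transcript of Atp5g1, of 596 nt, had a log2 FC of 0.24 by the authors' deposited table. For 7 members the row used is not annotated as coding, so its length can differ from that of the mRNA. It was 3038 nt for Cox6c and 1697 nt for Atp5e, against 738 and 421 nt for their coding transcripts. The length classes, the correlation and the trend fits used the lengths of the rows.

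**Figure D5:**
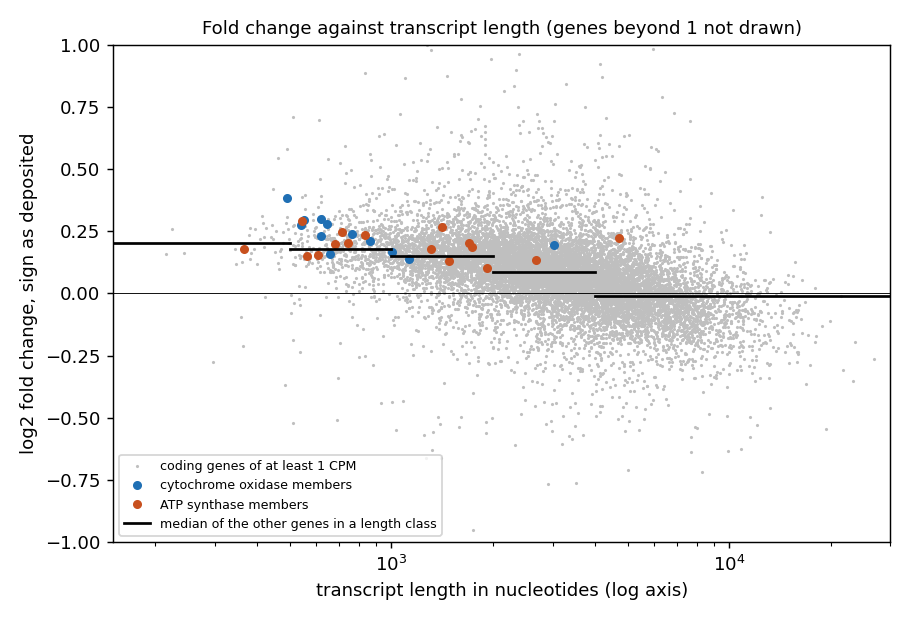
Log2 fold change (vertical axis, deposited sign) against transcript length (log axis) for coding genes of 1 CPM or more, in grey, with members in colour and the median of the other genes in each length class as black lines. The medians of the other genes go from 0.20 in the shortest class to -0.01 in the longest, and most members lie near or above the line of their class.

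Without the trend on length and level, the median of the 33 members was 0.04, and that of the coding genes of 1 CPM or more was also 0.04. The medians differed under the other trend fits: with GC content added they were 0.09 for the members and 0.04 for the coding genes, and with the trend fitted over genes of 1 CPM or more they were 0.05 for 28 members and 0.00 for the coding genes. The values that follow are again those of the first fit, on length and level. The members' middle 50% ran from 0.01 to 0.11, and that of the coding genes from -0.03 to 0.11. The cytochrome oxidase genes had a median of 0.08 and the ATP synthase genes one of 0.03. The members farthest above the trend were low in level: Cox4i2 (0.57), Cox6a2 (0.43), Cox6b2 (0.36), Atp5l (0.33) and Cox7c (0.25), and Atp5g2 lay farthest below it (-0.39). None of the 33 passed with an unadjusted p under 0.05 after this step, where the smallest was 0.0725 for Cox6a2. What makes the fold change follow length was not tested.

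Transcripts of a gene gave close values for most members. Of 23 members with more than 1 transcript, 15 had all log2 FC values within 0.05 of each other by the authors' deposited table. Of all 130 transcripts 124 had a positive sign, 5 a negative sign and 1 a log2 FC of 0. The other 8 spread further. Atp5b, with 9 transcripts, ranged from just under 0 to 0.20, and Atp5d from 0.12 to 0.27. Cox7c ranged from 0.14 to 0.28 and had a log2 FC of 0.14 with its longest coding transcript, against 0.27 for the row used here. Such transcripts share reads, so their number adds no independent support.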

How the data were processed

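RNA of 10 kidneys was measured by sequencing and grouped by the treatment in the sample titles, 5 vehicle and 5 quinolinic acid. Per the submitters' processing notes, the authors used FastQC 0.11.2, STAR 2.5.3a, featureCounts of Subread 1.4.6 and edgeR on mm10; the annotation release, filters, strand and multi-mapping settings are not given in the sources used here. The authors, per the file headers, deposited edgeR likelihood-ratio results per GENCODE transcript: log2 fold change, mean log2 CPM, the likelihood ratio (a score on 1 degree of freedom), the p-value and its Benjamini-Hochberg adjusted value over 85107 transcripts. No values per library were used, so p-values measure only the spread between these samples as the authors' model saw it.

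Of the transcripts 83446 (98.0%) matched GENCODE vM21 (GRCm38, the assembly of mm10) without version. Adjusted p under 0.05 was a call. The approximate error divides the size of the log2 fold change by the root of the likelihood ratio (1 degree of freedom). The trend was a loess fit (span 0.5, R 4.3.3) on log2 length and mean level over all matched transcripts. It was tried on simulated data with a linear trend on log2 length alone, so that trial does not cover a trend on level. Python 3.11.15, numpy 2.4.6, pandas 2.3.3, scipy 1.17.1 and matplotlib 3.10.9 did the rest. Every member is named; of other lists up to 3 genes with the smallest p, every mitochondrially encoded subunit and both genes left out by the rule. Members and lists were chosen with earlier results of these data known. Alternatives were other thresholds, adjustments, transcripts per gene and trend fits.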

Additional observations from a re-analysis of the deposited data

How the results depend on the processing

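The count of members past the threshold was 0 under each setting tried: adjusted p under 0.1, unadjusted p under 0.05, adjustment over 1 row per gene (smallest adjusted p of a member 0.820), over 1 row per gene of at least 1 CPM (0.918), and without the length and level trend (0.960). The median log2 fold change of the members was 0.20 with the coding transcript, the longest coding transcript or the median over a gene's transcripts, and 0.20 among members of at least 1 CPM. It was 0.04 without the length and level trend, 0.09 with GC content added, and 0.05 with the trend fitted over 1 row per gene of at least 1 CPM. Positive signs numbered 31 with each choice of transcript, 28 of 28 among members of at least 1 CPM, 25 without the length and level trend and 30 with GC content added. The counts of 25 and 30 include Cox8c, whose deposited log2 fold change was 0. Of the alternatives chosen after seeing the data, the gene-level trend gave 20 of 28, with 8 signs turned, and leaving out members that share windows gave 20 of 21, where fewer members are counted. Of coding genes of at least 1 CPM, 64.2% were above 0 without the length and level trend. The share was 66.1% with GC content added and 50.8% with the gene-level trend.

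Single members changed sign only where a trend was removed. On length and level these were Cox7a2 (-0.02355), Cox7a2l (-0.001592), Cox7b (-0.006925), Atp5b (-0.05075), Atp5j2 (-0.02932), Atp5k (-0.01839) and Atp5mpl (-0.0008096). With GC content added they were Atp5a1 (-0.007969) and Atp5b (-0.05407). With the gene-level trend they were Cox7a2 (-0.04082), Cox7a2l (-0.03386), Cox7b (-0.01307), Atp5b (-0.01786), Atp5j2 (-0.05056), Atp5k (-0.05624), Atp5mpl (-0.0359) and Atp5s (-0.01006). The cause was not tested. No paired analysis was possible because the values used are a finished comparison with no values per library, and for the same reason no mouse could be left out.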
